A study of Mus musculus with 3 samples.

Results

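Visceral white adipose tissue (VWAT) of obese mice given rapamycin (HFD-Rapa) was compared with that of lean mice (LFD-Vehicle, called lean below), gene by gene. All genes detected on at least 1 of these 2 arrays entered the comparison, which gave 10509 genes of the 10603 detected on any of the 3 arrays of the study and of the 19057 genes named on the array. The question behind the comparison was how far the fat of treated, high-fat fed mice stood from that of lean mice.

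HFD-Rapa mice were C57BL/6JRj mice fed a diet with 60 kcal% fat and given rapamycin, an inhibitor of the kinase mTOR, once a week at 2 mg/kg by injection for 22 weeks. HFD-Ve mice had the same diet and vehicle injections, and their array is given as a side value. Lean mice were of the same strain, on a low-fat diet with vehicle by their label, while the methods speak of regular chow for them. All 3 groups carry an age label of 28 weeks. By the methods the high-fat diet began at 6 weeks of age and ran for 5 weeks before the first injection, which together with 22 weeks of injections comes to more than that age. Each group has 1 Illumina mouse bead array, hybridized with RNA pooled from 5 of its mice. Males and females were used in the study, and which of them made up each pool is not given in the sources used here. With 1 array per group, differences are values of these pools without a replicate check, and no test was run. HFD-Rapa and lean mice differ in both diet and drug, so that the effects of diet and of rapamycin cannot be told apart in this comparison.

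White fat stores triglycerides in adipocytes, which make fatty acids from glucose, take them up from the blood and release them in fasting. In obesity, macrophages gather around dying adipocytes, take up their lipid and break it down in lysosomes, while fibroblasts lay down collagen. Rapamycin acts by binding the small protein FKBP12, and the complex inhibits mTOR, a kinase that drives protein and lipid synthesis and the proliferation of cells, including adipocyte precursors and lymphocytes.

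The probe signals were corrected for background, brought to a common distribution and put on the log2 scale, and every level below is such a log2 signal. The brightest detected probe stands for its gene. At a detection p under 0.01, of 45281 probes 39.7% were detected in HFD-Rapa, 38.8% in HFD-Ve and 37.4% in lean VWAT, and the lowest signals of detected probes were 5.26 in HFD-Rapa, 5.34 in HFD-Ve and 5.48 in lean VWAT. Markers of adipose tissue were bright on all 3 arrays, whereas markers of the depot were not uniform (Hoxc10, below). The adipocyte hormone gene Adipoq had 13.84 in HFD-Rapa, 14.34 in HFD-Ve and 14.55 in lean VWAT, and the matrix gene Dcn of fibroblasts had 14.28 in HFD-Rapa, 14.14 in HFD-Ve and 14.18 in lean VWAT. Kdr, Ms4a1, Ckm, Lcn5, Glycam1, Tbx15, Shox2 and Xist, markers of other cells, tissues or depots or of sex, were detected on none of the 3 arrays. Unlike Ckm, the skeletal muscle marker Acta1 was detected on all 3 arrays. Acta1 had 8.76 in HFD-Rapa, 8.997 in HFD-Ve and 9.73 in lean VWAT (1.96-fold lower in HFD-Rapa than in lean VWAT). Kdr was undetected although other endothelial genes were present. No probe was named for Cd68, Cd79a, Wt1 or Crisp1. Hoxc10, a gene of subcutaneous rather than perigonadal fat, had 5.78 in HFD-Rapa, 8.69 in HFD-Ve and 5.20 in lean VWAT, where it was not detected.

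With 1.5-fold as the threshold, 4241 genes (40.4% of all) separated HFD-Rapa from lean VWAT. Of these 2174 (20.7%) were higher and 2067 (19.7%) were lower on the HFD-Rapa array. Where a gene was not detected on the dimmer array, its difference is a lower bound, taken against the lowest detected signal of that array. With such genes at their bounds, 3879 genes (36.9%) passed 1.5-fold, of which 1903 (18.1%) were higher and 1976 (18.8%) lower. At 2-fold 1244 genes (11.8%) were higher and 873 (8.31%) lower as measured. These counts include genes detected only on the array where they are high, with 792 genes detected on HFD-Rapa only and 287 on lean only. Among genes detected on both arrays, 1649 were higher and 1839 lower at 1.5-fold. The median difference over all genes was -0.04 on the log2 scale, and the 5th and 95th percentiles were -1.28 and 1.67. HFD-Ve, set against the same lean array, differed from it in 2801 of these genes (26.7%), and since that array is shared, values of HFD-Ve are only given side by side.

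**Figure D1:**
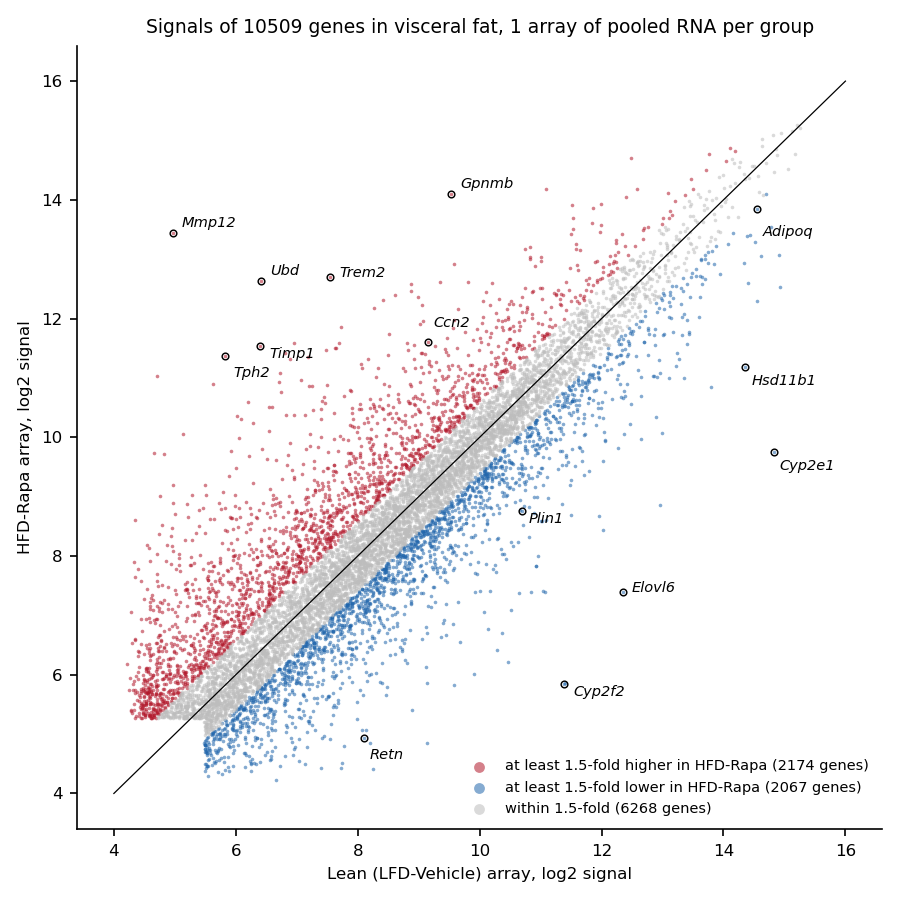
Each point is 1 of 10509 genes, with its log2 signal on the lean array (x axis) and on the HFD-Rapa array (y axis), and the line marks equal signals. 2174 genes lay at least 1.5-fold above the line and 2067 at least 1.5-fold below it, and 14 genes named in the text are circled.

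Probes of one gene are the only repeat measurement within these arrays. In 3887 genes with several detected probes, the log2 differences of probes of the same gene had an SD of 0.38, and 77.9% of 7878 pairs of such probes had the same sign. Of 1428 genes past 1.5-fold that had several probes, 1301 (91.1%) had all probes on the same side of 0 and 966 (67.6%) had all of them past 1.5-fold. These shares cover the probe and the array, not mice or pools. In the dimmest of 5 equal classes of genes by mean signal, 46.3% passed 1.5-fold as measured and 29.1% at bounds, against 34.3% in the brightest class either way, so that the order of these classes turns with the treatment of undetected genes.

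The 15 genes furthest above lean among those detected on both arrays were led by Ubd, the ubiquitin-like protein FAT10, which is induced in inflammation. Its level was 12.64 in HFD-Rapa, 12.28 in HFD-Ve and 6.42 in lean VWAT, a 74.6-fold difference between HFD-Rapa and lean. Tph2, an enzyme of serotonin synthesis best known from neurons, had 11.36 in HFD-Rapa, 12.10 in HFD-Ve and 5.82 in lean VWAT, a 46.7-fold difference. Ubd and Tph2 each rest on 1 probe. Timp1, which inhibits matrix metalloproteinases, had 11.54 in HFD-Rapa, 9.08 in HFD-Ve and 6.40 in lean VWAT, a 35.4-fold difference that both of its probes showed (5.06 and 5.14 on the log2 scale). Unlike Ubd and Tph2, Timp1 stood about as far above HFD-Ve on the HFD-Rapa array as HFD-Ve stood above lean.

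Of the other 12 genes, 8 are known from macrophages and related myeloid cells. Clec4d, a C-type lectin receptor of macrophages and neutrophils, had 10.90 in HFD-Rapa, 9.06 in HFD-Ve and 5.63 in lean VWAT (38.8-fold between HFD-Rapa and lean). Trem2, the lipid receptor of macrophages in obese fat, had 12.70 in HFD-Rapa, 11.85 in HFD-Ve and 7.54 in lean VWAT (35.7-fold). Gpnmb, a glycoprotein of lipid-laden macrophages, had 14.11 in HFD-Rapa, 13.66 in HFD-Ve and 9.54 in lean VWAT (23.7-fold), and its 4 probes ran between 3.62 and 4.87 on the log2 scale. The beta-glucan receptor Clec7a was 21.6-fold higher, the endosomal RNA sensor Tlr13 20.1-fold, the B cell and macrophage receptor Cd72 18.8-fold, the inhibitory receptor Lilrb4a 18.6-fold and the lysosomal protease Ctss 18.0-fold. Lilrb4a has a close paralog in the mouse, whose RNA the probe may share. The remaining 4 were Zranb3, an enzyme of replication fork repair (24.9-fold, 1 probe), Glipr1, a secreted protein of the CAP family (24.3-fold), Slc5a7, the choline transporter (21.1-fold), and Atf3, a stress-induced transcription factor (20.5-fold). HFD-Ve lay between lean and HFD-Rapa for all of the 15 genes except Tph2 and Slc5a7, where it was the highest of the 3 arrays.

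Genes detected on the HFD-Rapa array and not on the lean array can only be given as bounds. The largest was that of Mmp12, the macrophage elastase, with 13.44 in HFD-Rapa, 12.25 in HFD-Ve and 4.97 in lean VWAT, at least 249-fold above lean VWAT. Rgs1, a brake on chemokine receptor signalling in leukocytes, was at least 47.0-fold higher with its 3 probes between 4.55 and 6.33 on the log2 scale. The stromelysin Mmp3 was at least 23.9-fold higher, the integrin Itgad of macrophages at least 19.0-fold and Gdf3, a member of the TGF-beta family, at least 18.9-fold. Mmp13, a collagenase, was at least 13.1-fold higher, Ccl2, the chemokine that recruits monocytes, at least 11.7-fold, and Il1rn, the interleukin-1 receptor antagonist, at least 11.6-fold.

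At the other end stood enzymes of detoxification, fatty acid synthesis and glycogen or lipid handling. Cyp2f2, a cytochrome P450, had 5.85 in HFD-Rapa, 7.26 in HFD-Ve and 11.38 in lean VWAT, a 46.3-fold lower level in HFD-Rapa than in lean VWAT. Acsm3, a mitochondrial acyl-CoA synthetase of medium chains, had 5.86 in HFD-Rapa, 6.52 in HFD-Ve and 11.39 in lean VWAT (46.2-fold lower), and its 3 probes ran between -5.56 and -1.70 on the log2 scale. Cyp2e1, the ethanol-oxidizing P450, had 9.75 in HFD-Rapa, 12.75 in HFD-Ve and 14.82 in lean VWAT (33.5-fold lower), among the brightest genes of lean VWAT. HFD-Ve lay between the other arrays for each of these 3 genes.

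Of the 15 genes furthest below lean, 4 are on the fatty acid synthesis list (Elovl6, Thrsp, Acacb and Pnpla3, below). Agt, the precursor of angiotensin, had 6.21 in HFD-Rapa, 6.88 in HFD-Ve and 10.47 in lean VWAT (19.2-fold lower). The complement genes Masp1, a protease of the lectin pathway, and C6, a part of the membrane attack complex, were 14.97-fold and 12.4-fold lower. The others were the peroxisomal enoyl-CoA isomerase Eci3 (14.5-fold), the membrane protein Tmem79 (13.6-fold), the pantetheinase family member Vnn3 (12.6-fold), Rprml (11.2-fold) and Ppp1r3b, which directs a phosphatase to glycogen (10.9-fold). Masp1 had 6.00 in HFD-Rapa, 6.02 in HFD-Ve and 9.91 in lean VWAT. Tmem79 had 5.82 in HFD-Rapa, 5.85 in HFD-Ve and 9.59 in lean VWAT. For both genes the arrays of the high-fat groups were nearly equal. Of genes not detected on the HFD-Rapa array, the antioxidant esterase Pon1 was at least 14.6-fold lower, the chloride channel family member Clic6 at least 7.95-fold, the acyl-CoA synthetase Acsm5 at least 7.66-fold, the phosphorylase kinase subunit Phkg1 at least 7.36-fold and the adipocyte hormone Retn at least 7.15-fold. The fructosamine kinase Fn3k (at least 6.98-fold), the kinase Sik2 (at least 6.60-fold) and the DNA helicase Recql4 (at least 5.72-fold) followed.

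**Figure D2:**
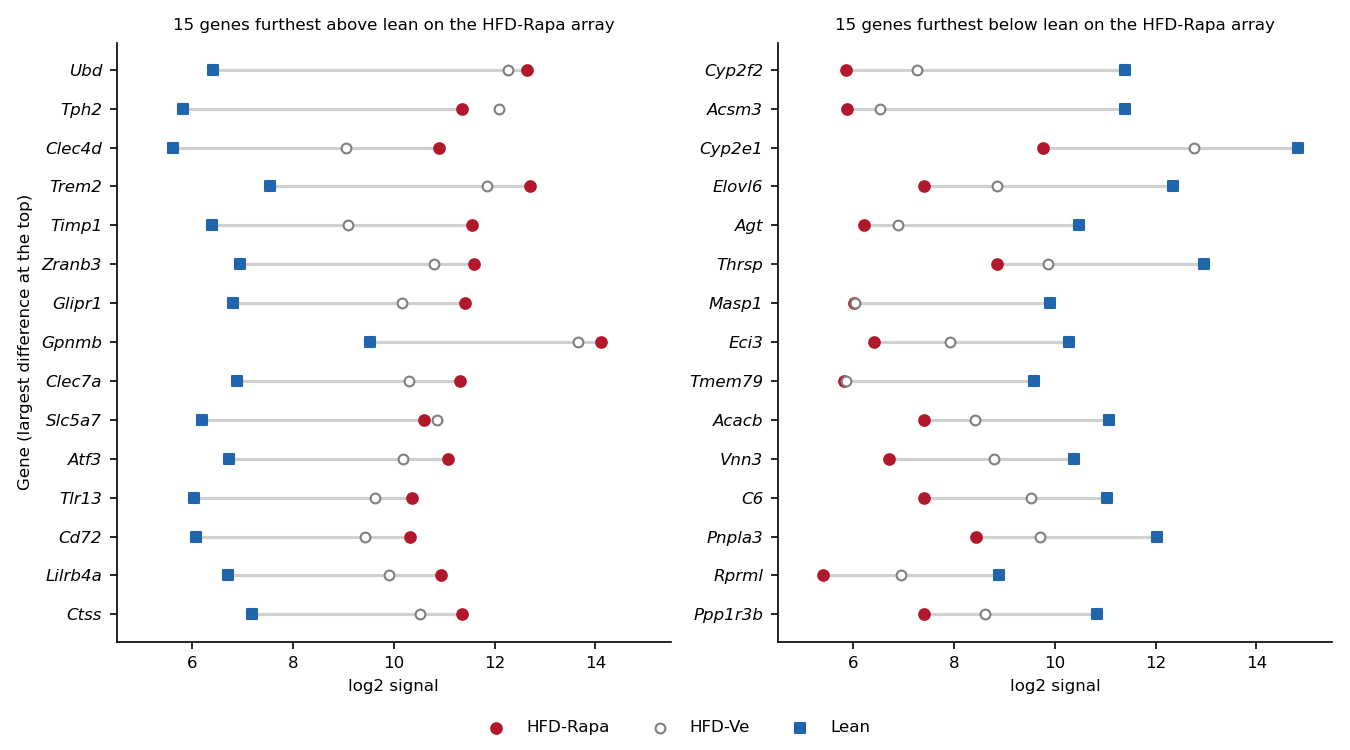
Log2 signals of the 15 genes furthest above lean (left) and the 15 furthest below lean (right) on the HFD-Rapa array, among genes detected on both arrays, with 1 point per array for HFD-Rapa, HFD-Ve and lean. HFD-Ve was the highest of the 3 arrays for Tph2 and Slc5a7 and lay between the other arrays for the rest. The choice of genes by their HFD-Rapa and lean levels favours such a place.

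Macrophage genes were higher nearly throughout. Of 26 measured macrophage markers 25 were at least 1.5-fold higher on the HFD-Rapa array and 1 was lower, against 20.7% higher and 19.7% lower over all genes, and their median log2 difference was 2.02 (1.47 for HFD-Ve against lean). Adgre1, which encodes F4/80, had 12.61 in HFD-Rapa, 12.17 in HFD-Ve and 9.81 in lean VWAT (6.99-fold between HFD-Rapa and lean), and Csf1r, the receptor of the macrophage growth factor, had 11.67 in HFD-Rapa, 11.35 in HFD-Ve and 10.01 in lean VWAT (3.17-fold). Both genes define the lineage and were clearly detected in lean VWAT as well. The largest differences were those of Ctss, the SLAM family receptor Cd84 (14.5-fold), the membrane protein Ms4a7 (13.7-fold) and Mpeg1, which encodes perforin-2 (13.1-fold). The summed signal of the 26 genes was 133378 in HFD-Rapa, 90935 in HFD-Ve and 31503 in lean VWAT, and 1 of them was not detected on the lean array. The single macrophage marker below lean was Cd163, the haemoglobin scavenger receptor (-1.21 on the log2 scale), named after its value was seen. In bulk tissue, more cells of a type and more RNA per cell cannot be told apart, here and for every list below. The shares over all genes, 20.7% higher and 19.7% lower, stand beside the counts of every list below as well.

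Of 19 markers of lipid-associated macrophages, 16 were higher and 1 lower (median 2.21). Phagocyte oxidase and Fc receptor genes were all higher, 13 of 13 (median 2.17). Among these, the Fc receptor Fcgr4 was 12.2-fold, Fcgr3 6.83-fold and Fcgr1 5.01-fold higher, and Cyba, a membrane subunit of the NADPH oxidase, was 5.26-fold higher. Myeloid lectins and immunoreceptors were higher in 18 of 21 (15 at bounds) with 1 lower (median 1.78). Lysosome genes moved less far but broadly, with 31 of 49 higher and 1 lower (median 0.78), led by the cathepsins Ctss and Ctsk (14.9-fold), the acid lipase Lipa (5.23-fold) and the proton pump subunit Tcirg1 (4.94-fold). By contrast, genes of alternatively activated and resident macrophages were split, with 9 of 20 higher (8 at bounds) and 4 lower (median 0.38). Within that list Arg1, an arginase, was at least 6.92-fold higher and the folate receptor Folr2 2.82-fold higher, whereas Retnla, which encodes RELM-alpha, had 11.31 in HFD-Rapa, 12.11 in HFD-Ve and 13.27 in lean VWAT (3.87-fold lower), and the lectin Cd209d was 3.38-fold lower.

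Of the measured genes, 8509 have an entry in the RefSeq promoter table (GRCm38.p6), and the 250 bases before the first start site listed were searched on both strands for short motifs chosen with the values known. The core GAGGAA of sites bound by PU.1, the transcription factor of myeloid cells encoded by Spi1, was present before 10 of 16 macrophage markers with an entry (62.5%), against 23.1% of all measured genes and 23.1% of the 27025 promoters of the table. A match is a run of letters and says nothing of binding. The pair of matching genes with the largest differences is shown, with the motif or its reverse complement TTCCTC in capitals.
Ctss, chr3:95526536-95526785, plus strand: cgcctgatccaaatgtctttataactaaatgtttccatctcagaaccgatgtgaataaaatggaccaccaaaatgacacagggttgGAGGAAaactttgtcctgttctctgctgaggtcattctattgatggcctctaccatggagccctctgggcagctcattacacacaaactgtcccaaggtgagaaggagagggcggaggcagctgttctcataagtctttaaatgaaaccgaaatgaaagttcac
Fcgr3, chr1:171059404-171059653, minus strand: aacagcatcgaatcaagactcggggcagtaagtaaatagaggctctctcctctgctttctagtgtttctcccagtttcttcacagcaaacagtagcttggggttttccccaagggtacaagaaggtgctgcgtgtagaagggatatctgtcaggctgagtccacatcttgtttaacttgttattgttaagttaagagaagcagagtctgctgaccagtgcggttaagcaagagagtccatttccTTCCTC

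Genes of other leukocytes were also higher, with smaller median differences than that of the macrophage markers. Of 14 T cell markers, 7 were higher and none lower (median 0.65, against 0.29 without background correction). The T cell receptor chain Cd3d had 7.85 in HFD-Rapa, 6.76 in HFD-Ve and 6.34 in lean VWAT (2.84-fold between HFD-Rapa and lean). Cd3g had 8.05 in HFD-Rapa, 7.02 in HFD-Ve and 6.80 in lean VWAT (2.38-fold). Cd3e had 7.46 in HFD-Rapa, 6.49 in HFD-Ve and 6.60 in lean VWAT (1.81-fold). For all 3 chains the HFD-Ve array was close to the lean one. The largest difference was that of Il7r, the interleukin-7 receptor, 15.7-fold higher, whose 3 probes ran between 1.39 and 3.97 on the log2 scale. Of 7 genes of regulatory T cells, 3 (1 at bounds) were higher and 1 lower, and their lineage factor Foxp3 had 9.73 in HFD-Rapa, 9.37 in HFD-Ve and 8.94 in lean VWAT, a 1.74-fold difference from lean that its second probe did not share (0.07 on the log2 scale). NK and cytotoxic cell genes were higher in 6 of 7 (4 at bounds), among them the chemokine Ccl5 (3.44-fold), the NK receptor chain Klrd1 (2.89-fold), Nkg7 of cytotoxic granules (2.40-fold) and the pore-forming Prf1 (1.66-fold).

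B cell and plasma cell genes were higher in 13 of 18 (10 at bounds) against 2 lower (median 1.32, against 0.73 without background correction), while their summed signal was 8514 in HFD-Rapa, 7005 in HFD-Ve and 9064 in lean VWAT. Median and sum thus differed in sign. Blnk and Btk, which relay B cell receptor signals and are also used by macrophages, were 9.69-fold and 4.6-fold higher, and the IgM receptor Fcmr 4.55-fold. The defining marker Ms4a1 was not detected. Ebf1, a factor of both B cells and adipocytes, was 3.65-fold lower. Of 11 mast cell genes, 7 were higher and 1 lower (median 1.65). The IgE receptor subunit Fcer1a had 10.05 in HFD-Rapa, 8.82 in HFD-Ve and 7.22 in lean VWAT (7.14-fold), and the proteases Cma1, Cpa3 and Tpsb2 were 4.84-fold, 4.84-fold and 4.38-fold higher. Their summed signal was 14402 in HFD-Rapa, 8906 in HFD-Ve and 4145 in lean VWAT. Of 17 neutrophil and S100 genes 12 (8 at bounds) were higher and 3 lower (median 0.86, 0.54 at bounds). Calcium-binding S100a4 was 10.4-fold, S100a8 4.73-fold and S100a9 3.92-fold higher, while the neutrophil protease Prtn3 was 3.15-fold lower.

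Chemokines of the CC and CXC families were higher in 19 of 27 (17 at bounds) against 4 lower (median 1.52, 0.88 at bounds). The chemokine Ccl4 had 9.77 in HFD-Rapa, 8.85 in HFD-Ve and 5.92 in lean VWAT (14.5-fold). Cxcl14 had 9.49 in HFD-Rapa, 8.55 in HFD-Ve and 6.01 in lean VWAT (11.2-fold). The monocyte attractant Ccl7 had 10.68 in HFD-Rapa, 10.57 in HFD-Ve and 7.44 in lean VWAT (9.42-fold). Ccl7 was almost level between the 2 high-fat arrays. Cxcl13, which draws B cells, was 4.41-fold higher. Cytokines and their receptors were higher in 20 of 33 (15 at bounds) against 2 lower (median 0.88, 0.46 at bounds), with the interleukin-10 receptor chain Il10ra 3.92-fold higher and Il15ra, the chain that presents interleukin-15, 3.46-fold lower, with all 4 of its probes below 0. Interleukin-10 itself was detected only on the HFD-Rapa array of this pair and was at least 1.32-fold higher. Genes of MHC class II and dendritic cells were higher in 18 of 23 (16 at bounds) against 2 lower (median 0.87), with Itgax, which encodes CD11c, at least 6.48-fold, the maturation marker Cd83 7.01-fold and the transcription factor Irf8 5.57-fold higher. Toll-like receptor and NF-kB genes were higher in 14 of 29 against 1 lower (median 0.58), with Cd180 8.96-fold, Tlr1 6.74-fold and Tlr8 6.57-fold higher beside Tlr13.

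Interferon-stimulated genes did not follow the other immune lists. Of 30 measured, 3 were higher and 10 lower (median -0.19, and 0.05 for HFD-Ve against lean). Cxcl9, a chemokine induced by interferon gamma, had 8.86 in HFD-Rapa, 9.93 in HFD-Ve and 10.28 in lean VWAT (2.67-fold lower). The antiviral gene Ifit3 had 9.88 in HFD-Rapa, 10.72 in HFD-Ve and 11.02 in lean VWAT (2.21-fold lower). The exonuclease Isg20 had 6.44 in HFD-Rapa, 7.46 in HFD-Ve and 7.56 in lean VWAT (2.18-fold lower). The transcription factor Irf7 had 6.77 in HFD-Rapa, 7.53 in HFD-Ve and 7.87 in lean VWAT (2.15-fold lower). In these 4 genes HFD-Ve lay closer to lean than to HFD-Rapa. MHC class I and immunoproteasome genes were higher in 5 of 21 (4 at bounds) against none lower (median 0.31), a share of higher genes close to the 20.7% over all genes. Apart from Ubd these differences were small, with the proteasome subunit Psmb10 at 1.73-fold and H2-K1 at 1.56-fold, of whose 3 probes at least 1 ran the other way (-0.26), as may happen among near-identical class I genes.

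Matrix genes were higher as well. Of 19 collagens 10 were higher and 1 lower (median 0.96), of 36 other matrix proteins and crosslinkers 21 (20 at bounds) were higher and 4 lower (median 0.77), and of 22 matrix proteases and inhibitors 14 were higher and 4 lower (median 1.15). Col8a1, a short-chain collagen, had 10.76 in HFD-Rapa, 8.22 in HFD-Ve and 6.74 in lean VWAT (16.3-fold). The fibrillar collagens Col1a2, Col3a1 and Col1a1 were 5.52-fold, 5.05-fold and 2.94-fold higher, although the second probe of Col3a1 gave a log2 difference of 0.67 against 2.34. Mgp, an inhibitor of calcification, had 14.18 in HFD-Rapa, 12.66 in HFD-Ve and 11.10 in lean VWAT (8.51-fold). The elastic fibre protein Mfap4 was 8.15-fold, the wound matrix protein Tnc 5.91-fold and the proteoglycan Lum 4.16-fold higher. The collagen below lean past 1.5-fold was Col4a4 (-0.94, and -0.74 at its bound, on the log2 scale, named after its value was seen). The collagen median was 0.39 with a detection p under 0.05 and 0.25 with no detection filter. That of the matrix proteases and inhibitors was 0.75 without background correction and 0.40 with detection on both arrays.

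The TGF-beta, activin and CCN list was higher in 8 of 27 genes (29.6%) against 3 lower (11.1%), with a median of 0.19. Over all genes 20.7% were higher and 19.7% lower. Ccn2, connective tissue growth factor, had 11.61 in HFD-Rapa, 9.06 in HFD-Ve and 9.15 in lean VWAT (5.50-fold between HFD-Rapa and lean, both probes alike). Its level in HFD-Ve was thus close to that of lean VWAT. Ccn4 was at least 5.20-fold higher and Ccn5 4.90-fold, and the activin receptor Acvr1c of adipocytes was 2.97-fold lower. Markers of fibroblasts and preadipocytes were higher in 12 of 23 against 3 lower (median 0.61). Without background correction that median was 0.34. Beside Lum, the members furthest above lean at bounds were the oxygen-binding protein Cygb (3.78-fold) and the Wnt antagonists Sfrp2 (3.50-fold) and Sfrp4 (at least 3.42-fold), while the general markers Pdgfra (10.68 in HFD-Rapa, 11.13 in HFD-Ve and 10.71 in lean VWAT) and Dcn were 1.02-fold lower and 1.07-fold higher. The summed signal of this list was 47795 in HFD-Rapa, 45940 in HFD-Ve and 44066 in lean VWAT.

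Genes of the cell cycle and DNA replication were higher nearly throughout, 29 of 32 with 1 lower (median 2.09, 1.92 at bounds, and 1.42 for HFD-Ve against lean). Tk1, thymidine kinase, had 9.20 in HFD-Rapa, 8.30 in HFD-Ve and 5.49 in lean VWAT (13.1-fold, with probes between 1.72 and 3.71 on the log2 scale). Prc1, which bundles microtubules in dividing cells, had 10.38 in HFD-Rapa, 9.40 in HFD-Ve and 6.96 in lean VWAT (10.7-fold). The mitotic kinase Cdk1 had 8.82 in HFD-Rapa, 8.12 in HFD-Ve and 5.82 in lean VWAT (7.96-fold). Birc5, which encodes survivin, was at least 8.09-fold higher. These genes were close to the detection limit in lean VWAT, and without background correction the median was 1.30. Below lean were the cyclins Ccnd3 (-0.65 on the log2 scale), past 1.5-fold, and Ccnd2 (-0.22), both named after their values were seen.

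The CCAAT box, bound by the factor NF-Y, was present in the 250 bases before the start of 20 of 25 cell cycle genes with a promoter entry (80.0%), against 36.2% of measured genes and 34.5% of the table. The letters TTTGAA of the cell cycle homology region were present before 7 of 25 (28.0%), against 10.8% of measured genes and 16.3% of the table. They were also present before 4 of 19 fatty acid synthesis genes (21.1%), a list below lean. Over all genes past 1.5-fold with an entry, the CCAAT box stood before 34.0% of the higher and 39.1% of the lower ones. Cdk1 and Top2a, the topoisomerase that untangles replicated DNA, had the largest differences among genes with both motifs. Both are shown with the motifs, or their reverse complements ATTGG and TTCAAA, in capitals.
Cdk1, chr10:69352913-69353162, minus strand: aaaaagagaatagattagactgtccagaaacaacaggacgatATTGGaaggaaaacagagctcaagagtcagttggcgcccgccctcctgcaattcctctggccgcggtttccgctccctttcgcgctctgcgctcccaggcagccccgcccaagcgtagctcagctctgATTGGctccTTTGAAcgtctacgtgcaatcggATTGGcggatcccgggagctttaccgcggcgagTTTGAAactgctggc
Top2a, chr11:99024190-99024439, minus strand: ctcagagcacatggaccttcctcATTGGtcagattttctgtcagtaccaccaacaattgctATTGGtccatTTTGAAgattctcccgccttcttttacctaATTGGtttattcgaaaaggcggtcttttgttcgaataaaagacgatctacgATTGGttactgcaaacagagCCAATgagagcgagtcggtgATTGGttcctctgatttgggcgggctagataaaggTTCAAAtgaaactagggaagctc

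**Figure D3:**
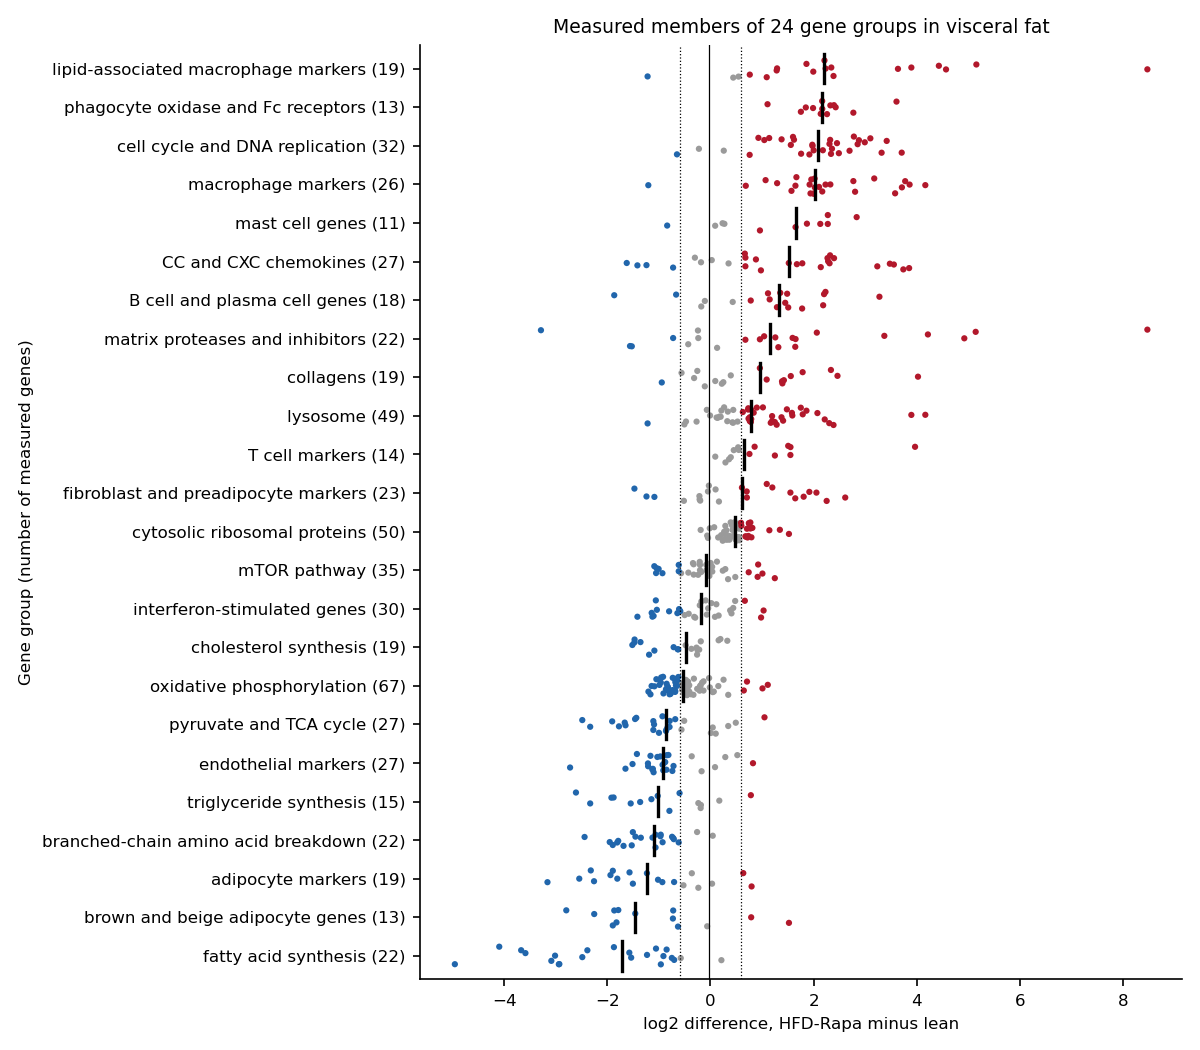
Each point is a measured gene of 1 of 24 gene groups, placed by its log2 difference (HFD-Rapa minus lean), with genes past 1.5-fold in colour, the 1.5-fold limits dotted, the median of all genes as a thin line and each group's median as a thick bar. Lipid-associated macrophage markers had the highest median (2.21) and fatty acid synthesis the lowest (-1.72).

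Fatty acid synthesis was the list furthest below lean. Of 22 measured genes 20 (19 at bounds) were lower and none higher, against 19.7% lower over all genes, with a median log2 difference of -1.72 (-1.46 for HFD-Ve against lean). Elovl6, which elongates palmitate, had 7.39 in HFD-Rapa, 8.86 in HFD-Ve and 12.35 in lean VWAT (31.1-fold lower), and its second probe gave -2.15 against -4.96 on the log2 scale. Thrsp, a promoter of lipogenesis, had 8.86 in HFD-Rapa, 9.86 in HFD-Ve and 12.95 in lean VWAT (17.1-fold lower). Acacb, the acetyl-CoA carboxylase of mitochondria, had 7.39 in HFD-Rapa, 8.41 in HFD-Ve and 11.07 in lean VWAT (12.8-fold lower). The lipase family member Pnpla3 had 8.43 in HFD-Rapa, 9.71 in HFD-Ve and 12.02 in lean VWAT (12.0-fold lower). In each of the 4 genes HFD-Rapa was lowest and HFD-Ve in between, an order that their choice by the largest difference favours. Of the chain from citrate to palmitate, the citrate carrier Slc25a1 (-1.87), the lyase Acly (-2.39) and the synthase Fasn (-3.02) were below lean on the log2 scale. The cytosolic acetyl-CoA carboxylase Acaca, which acts between Acly and Fasn, is not among the measured genes of the list. The regulators Mlxipl (ChREBP) and Srebf1 were 8.50-fold and 5.60-fold lower. The desaturase Scd1 (-0.58) just missed 1.5-fold, and only Hacd3 lay above lean (0.21). Slc25a1, Acly, Fasn, Scd1 and Hacd3 were named after their values were seen.

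Of the fatty acid synthesis genes with a promoter entry, 11 of 19 (57.9%) had a CCAAT box in the 250 bases before their start, a motif that SREBP target promoters often carry, against 36.2% of measured genes. Of those with the box, Thrsp and Acacb were furthest below lean. They are shown with CCAAT or its reverse complement in capitals.
Thrsp, chr7:97417551-97417800, minus strand: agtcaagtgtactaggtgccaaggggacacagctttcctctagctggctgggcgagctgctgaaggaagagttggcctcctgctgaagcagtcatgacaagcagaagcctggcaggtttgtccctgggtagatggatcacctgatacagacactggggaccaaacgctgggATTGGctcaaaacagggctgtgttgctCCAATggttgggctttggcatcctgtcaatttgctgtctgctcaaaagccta
Acacb, chr5:114165268-114165517, plus strand: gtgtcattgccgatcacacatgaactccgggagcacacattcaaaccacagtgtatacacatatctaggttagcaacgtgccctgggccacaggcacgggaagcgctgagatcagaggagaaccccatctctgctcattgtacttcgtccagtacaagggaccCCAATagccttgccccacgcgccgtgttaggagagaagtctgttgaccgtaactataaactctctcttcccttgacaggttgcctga

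Triglyceride synthesis was lower in 10 of 15 genes against 1 higher (median -1.02, and -0.39 for HFD-Ve against lean). The acyltransferases of its first steps did not all run the same way. Gpam had 6.19 in HFD-Rapa, 7.28 in HFD-Ve and 8.80 in lean VWAT (6.10-fold lower). Agpat2 had 10.56 in HFD-Rapa, 11.74 in HFD-Ve and 12.48 in lean VWAT (3.79-fold lower) and Gpat3 was 3.68-fold lower, whereas Agpat3 (0.78) was above lean and Agpat1 (-0.19) within 1.5-fold of it on the log2 scale (both named after their values were seen). Pck1, which supplies glycerol phosphate in fat, had 6.40 in HFD-Rapa, 8.27 in HFD-Ve and 8.73 in lean VWAT (5.04-fold lower), with the HFD-Ve level within 1.5-fold of lean. Of 17 genes of lipolysis and lipid droplets, 9 were lower and 2 higher (median -0.70, 0.04 for HFD-Ve against lean). The droplet coat gene Plin1 had 8.75 in HFD-Rapa, 9.74 in HFD-Ve and 10.70 in lean VWAT (3.84-fold lower). The droplet protein Cidea had 6.36 in HFD-Rapa, 8.65 in HFD-Ve and 8.61 in lean VWAT (4.78-fold lower) and G0s2, an inhibitor of the lipase ATGL, stood at -1.58 on the log2 scale. Hilpda, which is induced by hypoxia and lipid, was 3.04-fold higher.

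Genes of lipid uptake and efflux ran the other way, with 11 of 21 (10 at bounds) higher and 4 lower (median 0.74, 0.45 at bounds). Their median was only 0.12 with a detection p under 0.05, and also with detection on both arrays, and 0.20 with no detection filter. The cholesterol exporter Abcg1 had 8.89 in HFD-Rapa, 8.46 in HFD-Ve and 6.45 in lean VWAT (5.41-fold), and the scavenger receptor Msr1 was at least 3.52-fold higher. Abcg1, Msr1 and Lipa are also macrophage genes. The apolipoprotein Apoc1 was 3.52-fold lower. Cholesterol synthesis was lower in 9 of 19 genes against none higher (median -0.48), led by Cyp51 (2.86-fold), Nsdhl (2.78-fold), Pmvk (2.77-fold) and Sqle (2.56-fold).

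Adipocyte markers were lower in 13 of 19 against 2 higher (median -1.23, and -0.28 for HFD-Ve against lean). The insulin-responsive glucose transporter Slc2a4 (GLUT4) had 7.72 in HFD-Rapa, 8.96 in HFD-Ve and 10.27 in lean VWAT (5.84-fold lower). The carbonic anhydrase Car3 had 12.30 in HFD-Rapa, 14.04 in HFD-Ve and 14.56 in lean VWAT (4.79-fold lower) and Nnat, a small membrane protein, 8.04 in HFD-Rapa, 10.08 in HFD-Ve and 10.36 in lean VWAT (-2.32 on the log2 scale). In Car3 and Nnat HFD-Ve was within 1.5-fold of lean. Retn and Plin1 also belong to this list. Adipoq was 1.63-fold below lean, while Fabp4 (1.44-fold) and Cidec (1.29-fold) were below it by less than 1.5-fold. The summed signal of the 19 markers was 129532 in HFD-Rapa, 173496 in HFD-Ve and 193966 in lean VWAT, 1.5 times higher in lean, beside the higher summed macrophage signal given above. The part of this shift in the lower adipocyte and lipid genes was not tested.

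Adipogenic transcription factors were lower in 15 of 23 against none higher (median -0.99, -0.50 for HFD-Ve against lean). Beside Mlxipl, Srebf1 and Ebf1 the coactivator Ppargc1b was 3.65-fold lower, and the master regulators Pparg (-1.81) and Cebpa (-1.51) were also below lean on the log2 scale. These last 2 genes were named after their values were seen. Adipokines and other secreted factors of adipocytes had no common direction, with 7 of 22 higher and 8 lower (median -0.07, and 0.02 with median scaling). Saa3, an acute-phase protein, was 5.09-fold and Sfrp5, a Wnt antagonist of adipocytes, 5.10-fold higher, against the lower Agt and Retn.

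Of 13 genes typical of brown and beige adipocytes, 10 were lower and 2 higher (median -1.46, and -0.14 for HFD-Ve against lean). Ucp1, the uncoupling protein that makes heat in brown fat, had 5.66 in HFD-Rapa, 6.31 in HFD-Ve and 8.46 in lean VWAT (6.95-fold lower, 1 probe). Its mitochondrial relative Ucp3 had 5.64 in HFD-Rapa, 7.05 in HFD-Ve and 7.53 in lean VWAT (3.72-fold lower). Ucp1 was already low in HFD-Ve, whereas Ucp3 and Cidea in HFD-Ve were nearer to lean. The levels of Ucp1 and Ucp3 are close to the detection limit in HFD-Rapa, but not in lean VWAT. Without background correction the median of the list was -0.80. Genes shared with white adipocytes, such as Cidea and Ppargc1b, are part of this list.

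**Figure D4:**
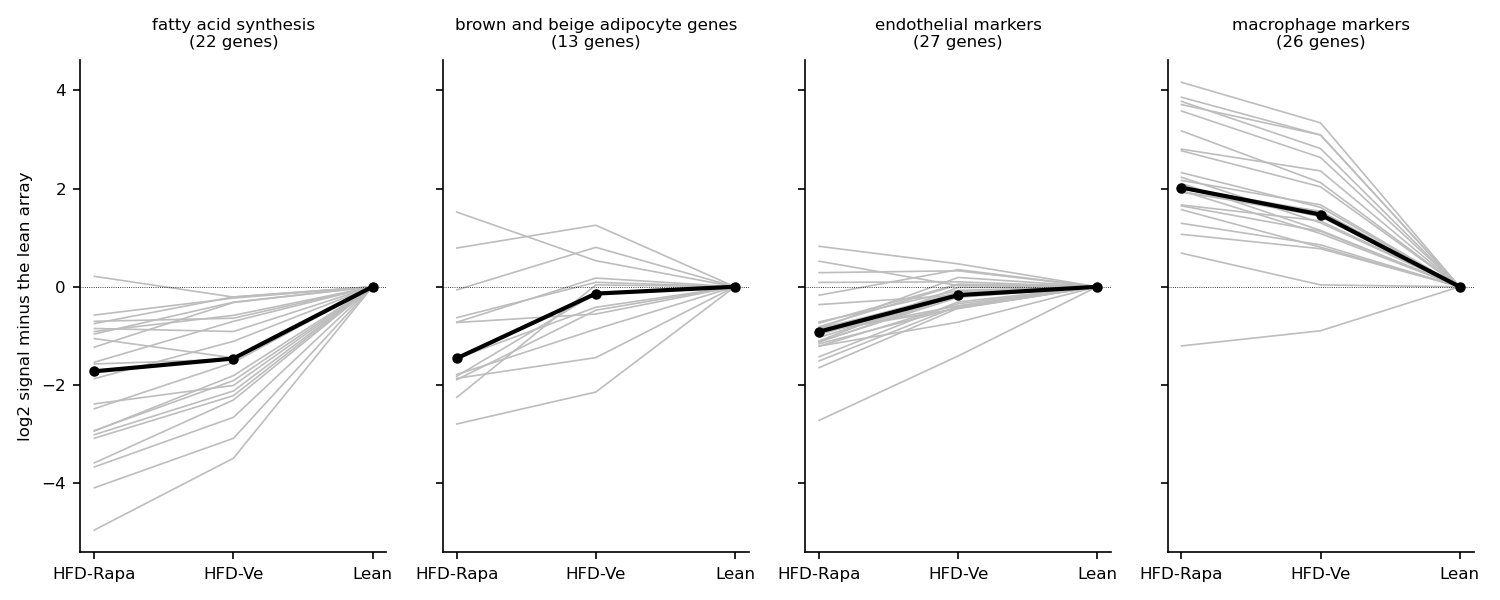
Log2 signal minus that of the lean array for each measured gene (grey lines) and the median of each group (black), on the HFD-Rapa, HFD-Ve and lean arrays, for 4 gene groups. Fatty acid synthesis was nearly as low on the HFD-Ve array (median -1.46) as on the HFD-Rapa array (-1.72), while the medians of brown and beige adipocyte genes (-0.14) and endothelial markers (-0.17) on the HFD-Ve array were near that of lean.

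Mitochondrial pathways were lower to different degrees. Branched-chain amino acid breakdown was lower in 20 of 22 genes against none higher (median -1.10, -0.50 for HFD-Ve against lean). Ivd, the isovaleryl-CoA dehydrogenase, had 9.82 in HFD-Rapa, 11.003 in HFD-Ve and 12.27 in lean VWAT (5.44-fold lower). The transaminase Bcat2 of the first step had 10.69 in HFD-Rapa, 11.27 in HFD-Ve and 12.64 in lean VWAT (3.88-fold lower), and Dbt, a subunit of the dehydrogenase complex, was 3.72-fold lower with a second probe at -0.66 on the log2 scale. The pathway was lower from its first step to Pccb of propionate disposal (3.51-fold). In the TCA cycle and its supply of pyruvate 19 of 27 genes were lower and 1 (0 at bounds) higher (median -0.86), with pyruvate carboxylase Pcx 5.61-fold, the pyruvate dehydrogenase subunit Pdhb 3.75-fold and the kinase Pdk2 3.42-fold lower.

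Oxidative phosphorylation was lower in 29 of 67 genes against 4 higher (median -0.53), within a narrow range. The cytochrome Cyc1 had 10.58 in HFD-Rapa, 11.29 in HFD-Ve and 11.78 in lean VWAT (2.30-fold lower), followed by the complex I subunits Ndufa12 (2.24-fold) and Ndufa10 (2.21-fold), while Ndufb4 was 2.16-fold higher. Mitochondrial ribosome genes were lower in 15 of 71 (14 at bounds) against 1 higher (median -0.34), a share of lower genes close to that over all genes. Mitochondrial fatty acid oxidation was lower in 9 of 22 against 1 higher (median -0.52), with Acad10 3.84-fold, the carnitine acetyltransferase Crat 2.75-fold, the isomerase Eci1 2.57-fold and the very long chain dehydrogenase Acadvl 1.92-fold lower. Peroxisomal oxidation was lower in 11 of 19 against none higher (median -0.65), led by the thioesterase Acot4 (4.03-fold), the proliferation factor Pex11a (3.70-fold, 4 probes between -2.14 and -1.62 on the log2 scale), the transporter Abcd2 (3.44-fold) and the bifunctional enzyme Ehhadh (3.34-fold).

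Xenobiotic and steroid metabolism was lower in 20 of 30 genes against 6 higher (median -1.25). Hsd11b1, which regenerates active glucocorticoid and is abundant in fat, had 11.18 in HFD-Rapa, 12.21 in HFD-Ve and 14.36 in lean VWAT (9.04-fold lower on 3 probes between -3.25 and -3.18 on the log2 scale). The glutathione transferase Gsta4 was 6.79-fold lower. Antioxidant and iron genes were mixed, with 10 of 30 higher and 6 lower (median 0.12). Hmox1, which breaks down haem, had 10.97 in HFD-Rapa, 10.12 in HFD-Ve and 7.06 in lean VWAT (14.97-fold higher) and the macrophage iron transporter Slc11a1 was 4.51-fold higher. The ferroxidase Cp and the iron carrier Trf, both of plasma, were 4.66-fold and 3.58-fold lower.

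Insulin signalling had no common direction, with 5 of 17 higher and 5 lower (4 at bounds, median -0.30). Beside the lower Slc2a4, Pik3r1, the regulatory subunit of PI3-kinase, had 10.89 in HFD-Rapa, 11.41 in HFD-Ve and 12.41 in lean VWAT (2.86-fold lower on 3 probes). Ptpn1 and Grb14, both inhibitors of the insulin receptor, were 3.52-fold and 2.69-fold higher. Grb14 had 8.94 in HFD-Rapa, 9.76 in HFD-Ve and 7.51 in lean VWAT, with the highest level on the HFD-Ve array. Of 18 genes of glucose uptake and glycolysis 4 were higher and 6 lower (median -0.06, 0.02 with median scaling), with the leukocyte hexokinase Hk3 9.38-fold and Pfkfb4 2.78-fold higher and the transporter Slc2a3 3.25-fold lower. The pentose phosphate and NADPH list was lower in 4 of 8, with transketolase Tkt 2.33-fold and malic enzyme Me1 1.95-fold lower.

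Rapamycin inhibits the mTOR pathway at the level of its kinase. Of 35 measured genes of the mTOR pathway, 5 (3 at bounds) were higher and 7 (6 at bounds) lower, against 20.7% and 19.7% over all genes, and the median was -0.08. The share of lower genes was thus close to that over all genes. The kinase Mtor had 8.53 in HFD-Rapa, 9.08 in HFD-Ve and 9.62 in lean VWAT (2.13-fold lower), but its second probe differed by only -0.06 on the log2 scale. Rptor of complex 1 had 8.95 in HFD-Rapa, 9.05 in HFD-Ve and 8.97 in lean VWAT. Rictor of complex 2 had 8.76 in HFD-Rapa, 8.80 in HFD-Ve and 9.34 in lean VWAT. Neither gene passed 1.5-fold, although Rictor (-0.57 on the log2 scale) missed it only narrowly. Fkbp1a, which encodes the rapamycin receptor FKBP12, had 11.59 in HFD-Rapa, 11.56 in HFD-Ve and 11.66 in lean VWAT. Rptor, Rictor and the drug's receptor were thus within 1.5-fold of lean, Rictor only just. Mtor was lower by the brightest probe, which stands for the gene, and not by its other probe.

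Among the targets and inhibitors of the pathway, Eif4ebp1, a translation repressor that mTORC1 phosphorylates, had 11.37 in HFD-Rapa, 11.90 in HFD-Ve and 12.41 in lean VWAT (2.06-fold lower). Eif4ebp2 had 8.28 in HFD-Rapa, 8.26 in HFD-Ve and 9.29 in lean VWAT (2.01-fold lower). Fkbp5, a glucocorticoid-induced relative of the receptor, was 2.08-fold lower and Prr5 of complex 2 1.91-fold lower. The inhibitor Deptor was 1.67-fold and the sestrin Sesn1 1.88-fold higher on all of their probes. Tsc1 had no settled direction, since its brightest probe, undetected on the lean array, gave at least 2.08-fold higher while another of its 3 probes gave -0.93 on the log2 scale. The remaining genes of the list, among them Rheb (-0.08), Mlst8 (0.04), Tsc2 (-0.43), Akt1s1 (0.03), Ulk1 (-0.33) and Sgk1 (0.48), lay within 1.5-fold of lean or were bounds under 1.5-fold, with Sesn2 (1.53-fold lower) just past it.

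Cytosolic ribosomal proteins, whose translation depends on mTORC1, were higher in 16 of 50 against none lower (median 0.48, and 0.10 for HFD-Ve against lean). Rpl13a had 10.61 in HFD-Rapa, 9.89 in HFD-Ve and 9.09 in lean VWAT (2.87-fold). Rps3a1 had 11.21 in HFD-Rapa, 10.90 in HFD-Ve and 9.87 in lean VWAT (2.54-fold). Rplp0 had 8.46 in HFD-Rapa, 7.90 in HFD-Ve and 7.32 in lean VWAT (2.21-fold). Ribosomal protein genes have many near-identical pseudogenes whose RNA their probes may share. Translation factors showed 5 of 34 higher and 3 lower (median -0.04, 0.05 with median scaling), autophagy genes 5 of 36 (4 at bounds) higher and 1 lower (median -0.07, 0.01 with median scaling) and proteasome subunits 2 of 27 higher and none lower. In these 3 lists fewer genes passed 1.5-fold than over all genes. The amino acid response and ER stress list was higher in 11 of 31 (9 at bounds) against 5 lower (median 0.36). The chaperone Hspa5 (BiP) had 8.77 in HFD-Rapa, 8.55 in HFD-Ve and 6.62 in lean VWAT (4.41-fold higher), whereas Phgdh of serine synthesis (3.71-fold) and Asns of asparagine synthesis (3.07-fold, 3 probes) were lower.

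Endothelial markers were lower in 21 of 27 against 1 higher (median -0.92), against a median of -0.17 for HFD-Ve set against the same lean array. Sox7, a transcription factor of vessels, had 6.64 in HFD-Rapa, 7.95 in HFD-Ve and 9.36 in lean VWAT (6.61-fold lower). Nos3, the endothelial nitric oxide synthase, had 8.44 in HFD-Rapa, 9.65 in HFD-Ve and 10.09 in lean VWAT (3.14-fold lower on 3 probes). Gpihbp1, which anchors lipoprotein lipase in capillaries, had 8.61 in HFD-Rapa, 9.73 in HFD-Ve and 10.12 in lean VWAT (2.85-fold lower). The angiopoietin receptor Tek had 7.99 in HFD-Rapa, 9.11 in HFD-Ve and 9.41 in lean VWAT (2.69-fold lower). The defining genes Pecam1 (8.49 in HFD-Rapa, 9.35 in HFD-Ve and 9.31 in lean VWAT) and Cdh5 (8.17 in HFD-Rapa, 9.20 in HFD-Ve and 9.01 in lean VWAT) were 1.76-fold and 1.80-fold lower. Except for Sox7, HFD-Ve was nearer to lean than to HFD-Rapa in all of these genes. The summed signal of the list was 10684 in HFD-Rapa, 17329 in HFD-Ve and 20271 in lean VWAT. Smooth muscle and pericyte markers were lower in 6 of 15 against 3 higher (median -0.26), with Rgs5 (2.75-fold), Kcnj8 (2.64-fold) and Abcc9 (2.28-fold) of pericytes lower and the actin-binding Synpo2 of smooth muscle at least 3.30-fold higher. The pericyte genes Cspg4 (-0.26) and Notch3 (-0.07) lay within 1.5-fold of lean on the log2 scale. Pdgfrb, counted here with the fibroblast markers and also expressed by pericytes, was above lean (1.20 as measured). Smooth muscle genes went both ways, with Myh11 (-0.59) below lean and Tagln (0.83 as measured) above it. These 5 genes were named after their values were seen.

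Genes of other tissues and sex-linked genes were read from the same arrays. Of 16 mesothelial markers 5 (4 at bounds) were higher and 1 lower (median 0.27, 0.06 at bounds), with Msln at 7.99 in HFD-Rapa, 7.14 in HFD-Ve and 7.39 in lean VWAT. Upk3b had 11.42 in HFD-Rapa, 10.80 in HFD-Ve and 11.82 in lean VWAT. Red blood cell genes had a summed signal of 24774 in HFD-Rapa, 40898 in HFD-Ve and 31374 in lean VWAT, with Hba-a1 1.28-fold and Alas2 1.34-fold lower than in lean VWAT. The Y-linked genes Eif2s3y (10.05 in HFD-Rapa, 10.45 in HFD-Ve and 9.97 in lean VWAT), Kdm5d (7.37 in HFD-Rapa, 7.37 in HFD-Ve and 7.49 in lean VWAT) and Uty (6.02 in HFD-Rapa, 6.40 in HFD-Ve and 5.91 in lean VWAT) were within 1.5-fold of lean, and Xist was not detected on any array with any of its 4 probes. Of 6 genes on the lymph node stroma list 4 (3 at bounds) were higher. They include Ltf, also on the neutrophil list, and the lymphocyte cytokine Ltb, so that the count is not one of stroma alone. The chemokine Ccl21a, which has near-identical copies, was 1.23-fold lower, and Glycam1 was not detected on any array. Muscle, pancreas and reproductive tract lists had 5 or fewer measured genes each. Of 5 muscle genes 2 were higher and 2 lower, with Pvalb at least 5.17-fold higher and Acta1 lower (-0.97 on the log2 scale). Of 2 pancreas genes, Cela1 was higher (1.01 on the log2 scale). The other, the amylase Amy2a5, one of several near-identical copies, was 4.08-fold lower.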

How the data were processed

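VWAT RNA was hybridized to 3 Illumina MouseWG-6 bead arrays, 1 per group, each from a pool of 5 mice. The authors deposited the signal intensity of 45281 probes per array, exported from GenomeStudio without background subtraction or normalization. The authors also deposited a detection p-value for each signal, from its comparison with negative control probes on that array. A second deposited table holds processed values on a linear intensity scale, with medians of 74.1 in HFD-Rapa, 74.2 in HFD-Ve and 74.3 in lean VWAT. How it was scaled is not given in the sources used here. Within each array it ranks probes almost exactly as the raw signals do, and it served as an alternative.

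Raw signals were background-corrected by normexp in limma 3.58.1 (R 4.3.3), with negative control levels estimated through the detection p and an offset of 16, then quantile-normalized and put on the log2 scale. This correction stretches differences between low signals. Probes needed a detection p under 0.01 on either array of the comparison, and a gene was read from its brightest such probe. Names came from the platform annotation, in which 34885 probes had 1 gene, 18 had several and were not named, and 10378 probes on the array are unnamed here. If the dimmer array missed detection, a bound was formed with the lowest signal detected on that array. Counts and medians use the measured difference of these genes unless given at bounds.

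With 1 array per group no test was run, and precision is limited by this number of arrays. Lists hold 1884 genes, of which 1430 were measured, 170 were not named on the array and 284 were undetected on both arrays. The genes and lists were chosen with earlier results of these data known. Named genes are the 15 highest and 15 lowest among genes detected on both arrays, the 8 highest and 8 lowest bounds, the 4 (or fewer) genes per list that differed most (at bounds), the mTOR pathway and sex-linked genes and the defining cell type markers. Genes outside this rule are marked in the text. Summed signals add the linear signals of a list's measured genes. Promoter letters are those of RefSeq (GRCm38.p6). Tables were computed with pandas 2.3.3 and numpy 2.4.6 under Python 3.11.15, plots drawn with matplotlib 3.10.9, and the steps checked on simulated arrays. Alternative settings omitted background correction, raised the offset to 50, scaled by the 75th percentile, the median or quantiles of the 2 arrays alone, took the authors' processed values, other detection filters, the mean of a gene's probes or a 2-fold threshold, or counted probes.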

Additional observations from a re-analysis of the deposited data

How the results depend on the processing

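The count of genes at 1.5-fold (4241, with 2174 higher and 2067 lower in HFD-Rapa) was 2817 without background correction, with 1350 lower, and 2788 in the authors' processed values, with 1336 lower. A 2-fold threshold left 2117 genes, 1244 higher and 873 lower, and counting probes gave 6408, with 3253 lower. Under all scaling and background settings together, 1435 of the higher genes (66.0%) and 1260 of the lower genes (61.0%) kept their call. Median scaling moved the median of all genes to 0.06, against -0.04 with quantile normalization, and higher genes then made up 59.8% of the calls, against 51.3%. Of 37 gene lists with a median past 1.5-fold, the median moved by over 1.5 times in 16 without background correction, in 16 with the authors' processed values, in 13 with no detection filter, in 7 with an offset of 50, in 5 with a detection p under 0.05 and in 5 with detection on both arrays, and in none with the 3 scalings or the mean of a gene's probes. Without background correction the medians were 0.86 for CC and CXC chemokines (against 1.52), 0.50 for cytokines and their receptors (against 0.88), 0.42 for neutrophil and S100 genes (against 0.86) and 0.39 for lipid uptake and efflux (against 0.74). The median of chemokine receptors was -0.13 with detection on both arrays, against 0.78 over all measured genes of that list. Tsc1 was at -0.93 on the log2 scale with detection on both arrays and at -0.12 with the mean of its probes, against 1.25 for its brightest probe, and the cause was not tested. No paired analysis was possible because each group has 1 array and no result comes from a test. The 1 array per group limits every value, and signals near the lowest detected level have bounds only.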

Other observations

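Genes of position along the body were lower on the HFD-Rapa array. Of 22 measured Hox and depot identity genes, 15 (14 at bounds) were lower and 2 (0 at bounds) higher, against 19.7% and 20.7% of all genes, with a median log2 difference of -0.93 (-0.78 for HFD-Ve against lean). Hoxa7 had 7.59 in HFD-Rapa, 7.56 in HFD-Ve and 9.43 in lean VWAT (3.58-fold lower than lean). Hoxb6 had 6.26 in HFD-Rapa, 5.90 in HFD-Ve and 7.96 in lean VWAT (3.25-fold lower). Hoxb5 and Hoxa4 were 3.12-fold and 2.95-fold lower. Each of these 4 genes rests on 1 probe, and both high-fat arrays were below lean in all of them. Of 14 circadian clock genes none was higher and 5 were lower (median -0.52). The nuclear receptor Nr1d1 (REV-ERB alpha) had 6.43 in HFD-Rapa, 7.41 in HFD-Ve and 8.73 in lean VWAT (4.91-fold lower), and the repressors Bhlhe40, Per3 and Cry2 were 2.79-fold, at least 2.51-fold and 2.33-fold lower. The hour of tissue collection is not given in the sources used here. Immediate early genes were higher in 8 of 19 against 1 lower (median 0.47), with the transcription factors Egr2 11.8-fold, Fos 7.51-fold and Junb 3.12-fold higher.

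Angiogenic factors were split, with 6 of 19 higher and 5 (4 at bounds) lower. Vegfa, the growth factor of endothelial cells, had 9.20 in HFD-Rapa, 10.58 in HFD-Ve and 11.48 in lean VWAT (4.84-fold lower, with a second probe at -2.79 on the log2 scale). Angpt1, which stabilizes vessels through Tek, had 5.75 in HFD-Rapa, 6.73 in HFD-Ve and 8.04 in lean VWAT (4.89-fold lower). Its antagonist Angpt2 had 9.98 in HFD-Rapa, 9.27 in HFD-Ve and 8.21 in lean VWAT (3.42-fold higher), and the receptor Nrp2 was 3.61-fold higher. The Wnt antagonist and adipose expansion list was higher in 11 of 18 (9 at bounds) against 3 lower, with Mest, a marker of fat expansion, at 11.38 in HFD-Rapa, 12.50 in HFD-Ve and 9.48 in lean VWAT (3.73-fold higher). In the IGF axis, Igf2 (3.39-fold) and Igfals (2.71-fold) were lower and the scavenging receptor Igf2r was 2.18-fold higher. Beside Tph2, the serotonin receptor Htr2b was at least 5.43-fold and neuropeptide Npy at least 4.26-fold higher, and Maob, which breaks down amines, was 5.56-fold lower. Complement genes were higher in 12 of 20 (10 at bounds) against 3 lower, among them Masp1 and C6, with the receptor Vsig4 4.39-fold higher. In retinoid handling Rbp4, the plasma carrier of retinol, was 3.16-fold lower and the retinaldehyde dehydrogenase Aldh1a3 3.02-fold higher.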
